A study of Mus musculus with 48 samples.

Results

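Armc9, Ubap1l, Prr15 and Cux1 are 4 mouse genes whose transcripts stood higher, not lower, after transcription had been blocked for hours. They were selected on their steep rises in total or nuclear RNA, out of 23862 gene identifiers listed in these data, and all 4 were listed in every library. Because that choice used the total and nuclear values, those values are described here without a test, and tests are given for the cytosolic and membrane fractions. These tests are not independent of the choice, since total RNA contains the RNA of both fractions.

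The data comprise 48 libraries of polyadenylated RNA from the mouse embryonic stem cell (mESC) line E14TG2a, grown in 2i + LIF medium with serum. All cells received 1 µM flavopiridol, which blocks the CDK9 kinase that RNA polymerase II needs to leave its pause, and were harvested after 30, 60, 120 or 240 min. At each time 3 independently passaged replicates gave a library of the unfractionated extract (total) and of the nucleus, cytosol and membrane fractions, which are separated by digitonin and a stronger detergent. Cycloheximide, which arrests ribosomes, was present during fractionation. There was no culture without the drug at the later times, and all cells came from 1 line. Each value is a ratio of a gene's level to that in the 0 min cells of the fraction, after libraries had been scaled on genes with long half-lives. A ratio of 1 therefore means the starting level, and ratios of different fractions compare changes and not amounts. The libraries at 0 min were not used here.

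Libraries listed 15067 to 19501 genes, and the read depth behind a ratio is unknown. The mESC markers Pou5f1, Sox2, Nanog, Klf4, Tfcp2l1 and Dppa5a were listed in all 48 libraries, Zfp42 in 47 and Esrrb in 37. Of the markers of other cell types, Elf5 was listed in 0 libraries, Sox17 in 1, Pax6 in 7, Col1a2 in 12, Cdx2 in 27, Gata6 in 42, Thy1 in 43, Col1a1 in 44 and Sox1 in 47. Listing shows that a gene was above 0 and carries no level. The nuclear 30 min library of replicate 1 stood apart, with a median ratio of 0.555 against 0.934 and 0.805 in replicates 2 and 3.

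When the kinase is inhibited, most genes stop producing new mRNA, and what remains of a transcript decays at its own rate. A transcript whose level rises under these conditions goes against the general course. The 4 genes have different known roles. Armc9 encodes an armadillo-repeat protein of the base of the primary cilium, and its human counterpart is mutated in Joubert syndrome. Ubap1l is named as a relative of Ubap1, a subunit of ESCRT-I, the complex that sorts ubiquitinated membrane proteins at endosomes. Cux1 encodes a transcription factor with CUT domains and a homeodomain, and Prr15 encodes a protein named for its proline-rich sequence.

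The genes differ widely in structure. On GRCm38, Cux1 spans chr5:136248135-136567490 on the minus strand, 319356 bp with 24 exons in its longest annotated transcript. This length exceeds that of 98.6% of the genes tested in total RNA, whose median is 16397 bp. Armc9 spans chr1:86154780-86278284 on the plus strand, 123505 bp with 25 exons, and is longer than 92.9% of genes. Ubap1l, at chr9:65361041-65380377 on the plus strand, measures 19337 bp with 7 exons. Prr15, at chr6:54325835-54330201 on the plus strand, measures only 4367 bp, and its longest annotated transcript has 1 exon. The members thus lie from the 23.4th to the 98.6th percentile of gene length.

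The stretches just upstream of the start sites are shown as a description. The members share a rise because they were picked for it. They were taken from the 250 bases before the RefSeq start on GRCm38, as far as no annotated UTR begins, and matches to the searched motifs are in capitals. The 250 bases upstream of Cux1 (minus strand) lie inside the annotated Cux1 gene, are wholly annotated as UTR and are not printed. The stretch of Prr15 lies inside the annotated gene, since another annotated transcript starts further upstream.
Armc9, chr1:86154530-86154710, plus strand: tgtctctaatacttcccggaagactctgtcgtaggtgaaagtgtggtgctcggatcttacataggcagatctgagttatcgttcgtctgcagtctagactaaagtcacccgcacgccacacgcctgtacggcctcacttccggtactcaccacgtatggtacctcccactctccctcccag
Ubap1l, chr9:65360779-65361028, plus strand: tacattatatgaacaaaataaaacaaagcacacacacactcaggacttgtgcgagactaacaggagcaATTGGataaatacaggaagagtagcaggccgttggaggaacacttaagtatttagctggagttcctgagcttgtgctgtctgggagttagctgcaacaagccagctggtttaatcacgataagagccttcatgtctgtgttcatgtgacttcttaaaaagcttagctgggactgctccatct
Prr15, chr6:54326651-54326882, plus strand: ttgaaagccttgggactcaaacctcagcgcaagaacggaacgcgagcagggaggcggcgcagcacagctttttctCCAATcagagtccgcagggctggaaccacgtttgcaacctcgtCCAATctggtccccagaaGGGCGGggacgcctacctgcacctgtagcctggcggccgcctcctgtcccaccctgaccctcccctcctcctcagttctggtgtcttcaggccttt
Within the full 250 bases the number of CpG dinucleotides was 19 for Armc9, 18 for Cux1, 13 for Prr15 and 3 for Ubap1l, against a median of 6 over 27025 mouse promoters. The GC content was 56% for Armc9, 62.8% for Cux1, 61.6% for Prr15 and 43.2% for Ubap1l, against a median of 52%. The CCAAT box (CCAAT, either strand) matched once in Armc9, in a part that is not printed, once in Ubap1l and at 2 positions in Prr15. It is found in 34.5% of all promoters. The GC box (GGGCGG, either strand) matched once, in Prr15, and is found in 32.9% of promoters. No member had the TATA box letters TATAAA on either strand, which are found in 13% of promoters. No searched motif was shared by all 4 members.

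Cux1 had the most regular time course. In total RNA its ratio was 0.364, 0.680 and 0.731 at 30 min in replicates 1, 2 and 3, and 0.262, 0.230 and 0.358 at 60 min. It was 0.663, 1.09 and 1.02 at 120 min and 2.40, 2.48 and 2.16 at 240 min. Every replicate was thus lowest at 60 min and highest at 240 min, and the 60 min values did not overlap with those of any other time. In the nucleus the ratios were 0.339, 0.673 and 0.406 at 30 min and 0.384, 0.379 and 0.344 at 60 min, then 1.24, 1.41 and 1.14 at 120 min and 2.26, 2.20 and 2.07 at 240 min. Nuclear Cux1 had therefore passed its starting level by 120 min in all 3 replicates. In the cytosol the ratios were 0.561, 0.680 and 0.499 at 30 min, 0.442, 0.360 and 0.487 at 60 min, 1.04, 0.780 and 0.827 at 120 min and 2.01, 1.80 and 2.13 at 240 min. Membrane ratios were 0.447, 0.543 and 0.560 at 30 min, 0.477, 0.316 and 0.568 at 60 min, 0.994, 1.44 and 1.33 at 120 min and 2.89, 2.47 and 3.18 at 240 min. In each fraction all 60 min values lay below 0.6, and every replicate climbed at both later times. A minimum at 60 min was not shared by all replicates. Nuclear replicate 1 and membrane replicates 1 and 3 were slightly higher at 60 than at 30 min. In such bulk libraries a change in the share of cells that hold a transcript and a change in its amount per cell cannot be told apart.

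Armc9 followed a similar course with a wider spread. In total RNA the ratios were 0.355, 0.840 and 0.188 at 30 min, 0.373, 0.355 and 0.782 at 60 min, 0.279, 1.37 and 0.843 at 120 min and 3.11, 2.22 and 2.30 at 240 min. The first 3 times overlapped with each other, and the 240 min values lay above all of them. In the nucleus the ratios were 0.286, 0.601 and 0.493 at 30 min, 0.310, 0.366 and 0.209 at 60 min, 0.783, 1.41 and 0.883 at 120 min and 4.11, 1.87 and 3.16 at 240 min. Here the 120 min values already lay above all those at 60 min. In the cytosol Armc9 started near its 0 min level, with 1.51, 0.898 and 0.728 at 30 min, 0.408, 0.623 and 0.856 at 60 min, 0.757, 0.569 and 0.931 at 120 min and 3.74, 2.75 and 1.73 at 240 min. In the membrane fraction the ratios were 1.56, 0.511 and 1.00 at 30 min, 0.470, 0.668 and 0.449 at 60 min, 1.09, 0.413 and 0.478 at 120 min and 2.30, 1.33 and 1.86 at 240 min. The lowest membrane value at 240 min lay below the highest at 30 min, so that these times overlapped.

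Ubap1l had replicate means between 0.703 and 1.17 outside the nucleus until 120 min. In total RNA the ratios were 1.02, 0.604 and 0.482 at 30 min, 0.775, 0.909 and 1.19 at 60 min, 0.849, 1.15 and 0.378 at 120 min and 3.66, 4.59 and 5.63 at 240 min. The value of 5.63 was the highest of any member in any library. In the nucleus the ratios were 0.259, 0.408 and 0.936 at 30 min, 0.616, 0.695 and 0.396 at 60 min, 0.567, 0.670 and 0.784 at 120 min and 2.39, 1.54 and 2.23 at 240 min. All 9 nuclear libraries up to 120 min were thus below 1. In the cytosol the ratios were 1.59, 1.13 and 0.800 at 30 min, 1.27, 0.725 and 0.789 at 60 min, 1.03, 1.14 and 0.650 at 120 min and 2.80, 2.73 and 3.15 at 240 min. Membrane ratios were 1.17, 1.02 and 0.943 at 30 min, 0.883, 0.446 and 1.07 at 60 min, 1.09, 1.19 and 0.898 at 120 min and 3.45, 3.36 and 2.60 at 240 min. In both of these fractions the 240 min values lay above all earlier ones.

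Prr15 differed between fractions in its spread. In total RNA the ratios were 0.889, 1.26 and 1.32 at 30 min, 0.747, 1.96 and 0.391 at 60 min, 0.979, 0.513 and 0.507 at 120 min and 3.24, 3.53 and 3.53 at 240 min. In the nucleus they were 0.366, 0.576 and 0.315 at 30 min, 0.528, 0.702 and 0.267 at 60 min, 0.891, 1.58 and 0.821 at 120 min and 3.05, 4.38 and 3.48 at 240 min. Nuclear Prr15 was higher at 120 min than at 60 min, without overlap, whereas total Prr15 was not. The cytosolic ratios were 1.17, 0.607 and 0.131 at 30 min, 0.110, 0.787 and 0.811 at 60 min, 0.409, 0.410 and 0.605 at 120 min and 0.644, 1.40 and 1.77 at 240 min. The membrane ratios were 0.879, 0.173 and 0.170 at 30 min, 0.797, 0.151 and 0.912 at 60 min, 0.295, 0.419 and 0.162 at 120 min and 1.44, 1.46 and 2.52 at 240 min. Replicates of the same time thus differed several-fold in both fractions. The residual SD of Prr15 around a straight line over time was larger than that of 99.1% of genes in the cytosol and of 99.2% in the membrane fraction. In total RNA it was larger than that of 93.0% and in the nucleus of 59.4%. This SD holds both the spread of replicates and any departure of the course from a straight line.

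**Figure D1:**
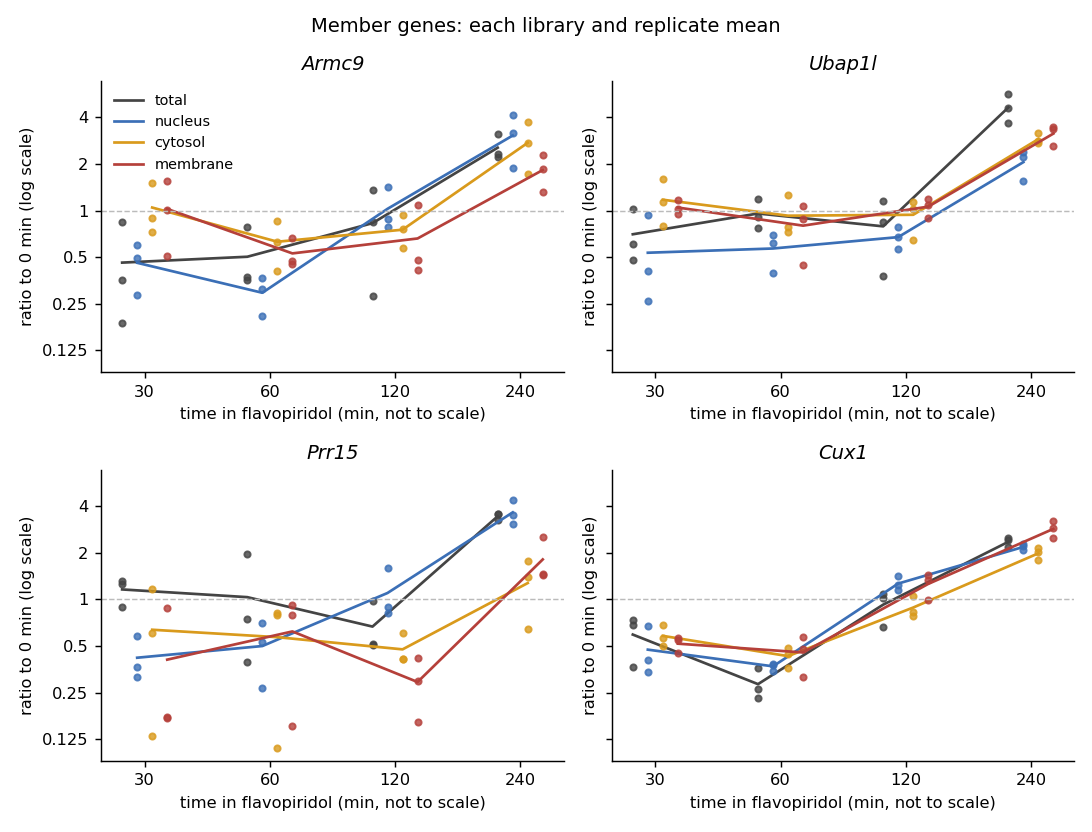
Ratio to 0 min (log scale) of the 4 genes at 30, 60, 120 and 240 min, with 1 point per library and a line through the mean of 3 replicates for each fraction; the dashed line marks the starting level. The 240 min points stand above the earlier ones in nearly all panels, the exceptions being cytosolic Prr15 and membrane Armc9, and Cux1 has the tightest replicates.

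At 240 min the 4 genes reached different levels in the different fractions. Ubap1l was highest in total RNA, at 4.63 ± 0.98 (SD, n = 3), and the membrane mean of 3.14 ± 0.47 and the cytosolic mean of 2.89 ± 0.22 were closer to each other than the larger SD. Its nuclear ratio was 2.05 ± 0.45. The total mean of Ubap1l thus lay above that of every fraction, although the extract contains their RNA. Libraries were scaled on reference genes and then set against the 0 min level of total RNA or of their own fraction. Why the total mean lay above that of every fraction was not tested. Prr15 stood at 3.64 ± 0.68 in the nucleus and 3.43 ± 0.16 in total RNA, which were also closer than the larger SD, but at only 1.81 ± 0.61 in the membrane fraction and 1.27 ± 0.58 in the cytosol. Armc9 had means of 3.05 ± 1.12 in the nucleus, 2.74 ± 1.01 in the cytosol, 2.55 ± 0.49 in total RNA and 1.83 ± 0.49 in the membrane fraction, and the first 3 of these differed from each other by less than the largest SD. Cux1 was highest in the membrane fraction with 2.85 ± 0.36, followed by 2.35 ± 0.17 in total, 2.18 ± 0.10 in nuclear and 1.98 ± 0.17 in cytosolic RNA.

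For 14 of the 16 pairs of gene and fraction, all 240 min libraries lay above all 9 earlier ones. In total RNA 3.42% of all genes showed this and in the nucleus 2.17%, but there the members were picked for their rises. Among the 8 pairs of cytosol and membrane fraction it held for 6, against 1.79% of all cytosolic and 2.36% of all membrane genes tested. The libraries of these fractions are separate from those used in the choice, but the whole-cell extract contains the RNA of both.

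The course over time was then summarised by the change of the log2 ratio per hour (slope), fitted with limma across all genes listed in the 12 libraries of a fraction. In total RNA the slope was 0.78 ± 0.15 log2 per h (SE) for Armc9, 0.76 ± 0.14 for Ubap1l, 0.74 ± 0.13 for Cux1 and 0.51 ± 0.18 for Prr15. In the nucleus it was 0.93 ± 0.09 for Prr15, 0.90 ± 0.12 for Armc9, 0.73 ± 0.10 for Cux1 and 0.61 ± 0.10 for Ubap1l. These values chose the members. The general course was downward, with a median slope over all genes of -0.22 in total RNA and -0.30 in the nucleus. At an adjusted p under 0.05, 3.39% of all genes rose in total RNA and 56.9% fell, and in the nucleus 3.32% rose and 61.9% fell. Among all genes fitted in total RNA, predicted genes included, Armc9 ranked 8th, Ubap1l 10th, Cux1 11th and Prr15 47th by slope, and in the nucleus Prr15 ranked 6th, Armc9 7th, Cux1 18th and Ubap1l 47th. When only genes were kept that were not predicted, were listed in all 48 libraries, had an adjusted p under 0.05 and had the same sign in each replicate series, Hrk, a proapoptotic BCL2 family gene, was steepest in total RNA with 0.81 ± 0.07. Among these genes Setbp1, with 0.72 ± 0.13, and B4galnt2, with 0.67 ± 0.04, came directly below Cux1 in total RNA, and both were steeper than Prr15. In the nucleus Zbtb20, with 0.69 ± 0.08, and Setbp1, with 0.67 ± 0.08, came directly below Cux1, and both were steeper than Ubap1l.

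In the cytosol, where 2.95% of all genes rose and 67.1% fell, 3 of the 4 members rose. The whole-cell extract used in the choice contains cytosolic and membrane RNA. Rises in these fractions are therefore not independent of the choice, and the shares over all genes serve only as a background. The cytosolic slope was 0.59 ± 0.07 log2 per h for Cux1 (adjusted p = 6.25e-06), 0.49 ± 0.14 for Armc9 (adjusted p = 0.00629) and 0.44 ± 0.11 for Ubap1l (adjusted p = 0.00303). Prr15 had a slope of 0.42 ± 0.22 with a 95% confidence interval from -0.07 to 0.91, and the test was not passed (adjusted p = 0.112). It was passed without replicate 1, with a slope of 0.56 (adjusted p = 0.0408), but not without replicate 2, with 0.48 (adjusted p = 0.209).

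In the membrane fraction, where 4.09% of all genes rose and 62.2% fell, all 4 members rose. As for the cytosol, this is not independent of the choice. The membrane slope was 0.78 ± 0.08 log2 per h for Cux1 (adjusted p = 2.31e-06), 0.67 ± 0.23 for Prr15 (adjusted p = 0.0191), 0.53 ± 0.10 for Ubap1l (adjusted p = 0.000384) and 0.37 ± 0.15 for Armc9 (adjusted p = 0.0434). The Armc9 call was lost when any replicate was left out, with adjusted p between 0.0689 and 0.125, although the slopes remained between 0.36 and 0.38. The Prr15 call was lost without replicate 2 (adjusted p = 0.165) and without replicate 3 (adjusted p = 0.0722).

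**Figure D2:**
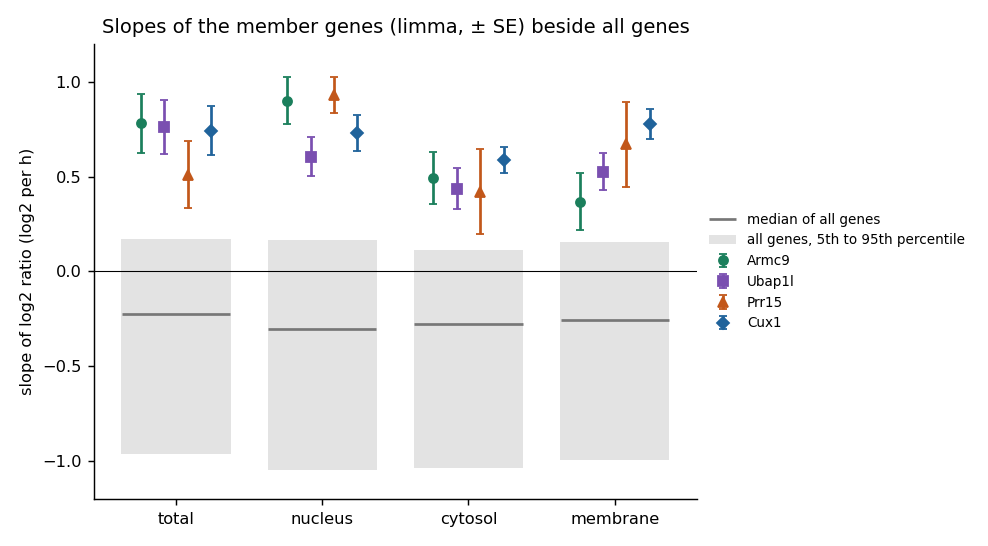
Slope of the log2 ratio (log2 per h) of each gene in the 4 fractions, with points for limma estimates and bars for their SE; grey boxes span the 5th to 95th percentile of all genes of the fraction, with a line at their median. Every member lies above the grey box in every fraction, and the medians of all genes lie between -0.30 and -0.22.

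Whether the rise differed between the membrane fraction and the cytosol was tested by the interaction of time with fraction. The membrane minus cytosol slope was 0.25 ± 0.33 log2 per h for Prr15 (95% interval from -0.43 to 0.93), 0.19 ± 0.11 for Cux1 (-0.04 to 0.41), 0.09 ± 0.15 for Ubap1l (-0.22 to 0.40) and -0.12 ± 0.21 for Armc9 (-0.56 to 0.31). None of the 4 passed in limma (adjusted p between 0.36 and 0.821, and 0 at an unadjusted p under 0.05), where 6.7% of all genes did. The intervals leave room for slopes that differ in either direction.

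A slope does not show when a gene rose, so the steps between successive times were fitted with time as a factor. From 120 to 240 min the cytosolic step was 1.82 ± 0.38 log2 units (SE) for Armc9 (adjusted p = 0.00246), 1.66 ± 0.30 for Ubap1l (adjusted p = 0.00107) and 1.17 ± 0.16 for Cux1 (adjusted p = 0.00016), whereas Prr15 had 1.32 ± 0.91 (adjusted p = 0.261). In the membrane fraction it was 2.68 ± 0.79 for Prr15 (adjusted p = 0.0200), 1.57 ± 0.45 for Armc9 (adjusted p = 0.0174), 1.57 ± 0.28 for Ubap1l (adjusted p = 0.00136) and 1.19 ± 0.22 for Cux1 (adjusted p = 0.00162). The last step thus passed for 3 members in cytosolic and 4 in membrane RNA, where 2.78% and 3.72% of all genes rose over it. These calls too are not independent of the choice of members. Among the calls, Armc9 in the cytosol lost its own without replicate 2 (adjusted p = 0.075). In the membrane fraction Armc9 lost it without replicate 3 (adjusted p = 0.191), and Prr15 without replicate 1 (adjusted p = 0.0635) or replicate 3 (adjusted p = 0.183).

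The preceding step, from 60 to 120 min, passed for Cux1. It was 1.04 ± 0.16 log2 units in the cytosol (adjusted p = 0.00118) and 1.49 ± 0.22 in the membrane fraction (adjusted p = 0.00155). Only 0.743% of all genes rose over this step in cytosolic RNA and 1.14% in membrane RNA. Over the same step Armc9 had 0.29 ± 0.38 and 0.20 ± 0.45, Ubap1l 0.02 ± 0.30 and 0.49 ± 0.28, and Prr15 0.18 ± 0.91 and -0.82 ± 0.79 in the cytosol and membrane fraction, none of which passed. Whether Cux1 differed from the other members in this step was not tested. In the nucleus, as a description, the step from 60 to 120 min was 1.79 ± 0.37 for Armc9, 1.77 ± 0.22 for Cux1, 1.18 ± 0.38 for Prr15 and 0.27 ± 0.41 for Ubap1l. In total RNA it was 1.70 ± 0.28 for Cux1, 0.54 ± 0.64 for Armc9, -0.39 ± 0.49 for Prr15 and -0.40 ± 0.41 for Ubap1l.

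From 30 to 60 min no member passed in either tested fraction. Cux1 had -0.43 ± 0.16 in the cytosol (adjusted p = 0.184) and -0.22 ± 0.22 in the membrane fraction (adjusted p = 0.507), and in total RNA it stood at -1.02 ± 0.28. With the 240 min libraries left out, the slope turned negative for Armc9 and Ubap1l in the cytosol (-0.21 and -0.17 log2 per h), for Armc9 and Prr15 in the membrane fraction (-0.33 and -0.19) and for Prr15 in total RNA (-0.54). Cux1 kept a positive slope in this shorter window in each fraction, with 0.50 in the cytosol (adjusted p = 0.0614) and 1.10 in the nucleus. In the membrane fraction the slope of Cux1 in this window was 0.94 (adjusted p = 0.00556). No slope of Armc9, Ubap1l or Prr15 passed in the cytosol or membrane fraction without the last time.

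**Figure D3:**
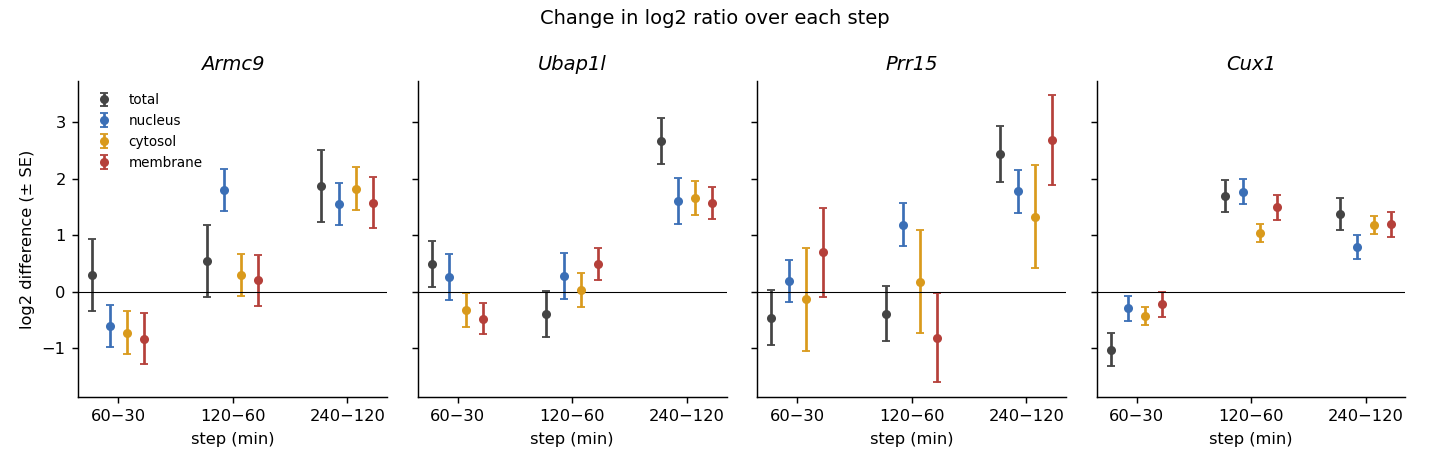
Difference in log2 ratio (± SE) between successive times for each gene, coloured by fraction. The 240 minus 120 min step is above 0 for every gene and fraction, between 0.79 and 2.68, and Cux1 is also above 0 in every fraction for the 120 minus 60 min step.

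The size of a rise depends on the reference level. When libraries were centred on their medians, the median slope over all genes went from -0.22 to 0.01 in total RNA and from -0.28 to 0.00 in the cytosol. Under this scaling 3672 genes rose and 3961 fell in total RNA, in place of 432 and 7262, and in the cytosol 3520 rose and 3887 fell, in place of 353 and 8038. In the nucleus 3954 rose and 3897 fell, in place of 443 and 8256, and in the membrane fraction 3513 rose and 3837 fell, in place of 507 and 7718. Centring shifts all slopes of a fraction by the same amount, here upward. The members therefore kept positive slopes, which became steeper. In total RNA these were 1.01 for Armc9, 0.99 for Ubap1l, 0.97 for Cux1 and 0.74 for Prr15. Prr15 then passed in the cytosol, with 0.70 (adjusted p = 0.018).

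The nearest relatives of the members were examined next. Of the 6 other CUT domain homeobox genes on the list, only Cux2, the paralog of Cux1, was listed in all 12 libraries of a fraction. In total RNA the Cux2 ratio was 0.697, 0.412 and 0.616 at 30 min, 0.488, 0.465 and 0.383 at 60 min, 0.457, 0.446 and 1.10 at 120 min and 1.63, 1.45 and 1.15 at 240 min. In the nucleus it was 0.524, 0.659 and 0.811 at 30 min, 0.566, 0.201 and 0.286 at 60 min, 0.430, 0.387 and 0.440 at 120 min and 1.11, 0.815 and 1.11 at 240 min. Total and nuclear Cux2 were below 1 in nearly all libraries up to 120 min, the exception being 1 total library at 120 min. In the cytosol the ratio was 1.23, 1.46 and 1.38 at 30 min, 0.994, 0.843 and 1.74 at 60 min, 1.23, 0.924 and 1.36 at 120 min and 2.90, 3.41 and 2.66 at 240 min. Membrane Cux2 stood at 1.39, 0.684 and 1.18 at 30 min, 0.630, 0.895 and 0.751 at 60 min, 1.90, 0.553 and 0.801 at 120 min and 1.98, 2.55 and 2.24 at 240 min. In all 4 fractions the 240 min values lay above all earlier ones. Cux2 rose in total RNA with a slope of 0.43 ± 0.09 log2 per h (adjusted p = 0.00152), in the cytosol with 0.36 ± 0.09 (adjusted p = 0.00297) and in the membrane fraction with 0.38 ± 0.12 (adjusted p = 0.0113). The nuclear slope was 0.30 ± 0.13 (adjusted p = 0.0598). The membrane call was lost without replicate 2 (adjusted p = 0.0689) or replicate 3 (adjusted p = 0.0525), and without the 240 min libraries none of these 3 fractions passed.

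**Figure D4:**
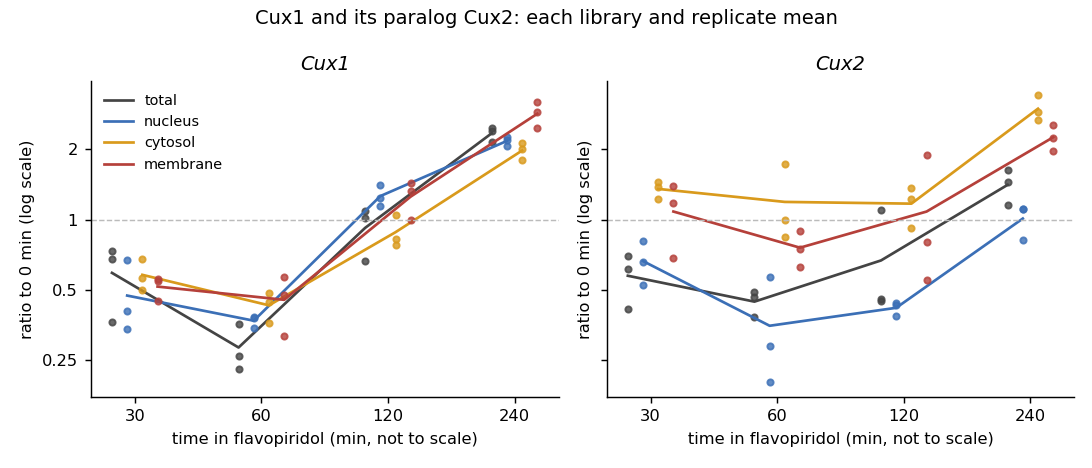
Ratio to 0 min (log scale) of Cux1 and of its paralog Cux2 by time, with 1 point per library and lines through replicate means for each fraction. Both are highest at 240 min, where cytosolic Cux2 reaches 2.99 ± 0.38 (SD, n = 3) against 1.98 ± 0.17 for Cux1, and nuclear Cux2 stands at 1.01 ± 0.17.

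The partners of Armc9 and Ubap1l were counted beside the shares over all genes, which were 3.39% rising and 56.9% falling in total RNA, 3.32% and 61.9% in the nucleus, 2.95% and 67.1% in cytosolic RNA, and 4.09% and 62.2% in membrane RNA. At these shares, lists of this size would hold few or no rising genes. Of 27 genes of the cilium and of Joubert syndrome, 20 could be tested in total RNA, of which 0 rose and 14 fell, with a median slope of -0.25 against -0.22 over all genes. In the nucleus 0 of 21 rose and 17 fell, in the cytosol 0 of 19 rose and 14 fell, and in the membrane fraction 0 of 21 rose and 15 fell. With libraries centred on their median gene, 3672 of all 12762 genes rose and 3961 fell in total RNA. Of the 20 genes of this list, 7 rose and 7 fell. The highest slope in total RNA was that of Ahi1, with 0.06 ± 0.05 (adjusted p = 0.257), and the lowest was that of Tmem67, a membrane protein of the ciliary transition zone, which fell with -0.68 ± 0.21 (adjusted p = 0.0148). The Tmem67 call was lost without replicate 1 or replicate 3 (adjusted p = 0.113 and 0.127) and after centring (-0.45, adjusted p = 0.0676). Of 15 ESCRT genes set beside Ubap1l, 12 could be tested in total RNA, of which 0 rose and 8 fell. In the nucleus 0 of 11 rose and 10 fell, in the cytosol 0 of 11 rose and 9 fell, and in the membrane fraction 0 of 10 rose and 9 fell. After centring, 2 of the 12 rose and 4 fell in total RNA, to be set beside the same counts over all genes. At an unadjusted p under 0.05 in limma, 0 genes of either list rose in any fraction with the deposited scaling. Ubap1 itself fell in each fraction, with -0.46 ± 0.07 in total RNA (adjusted p = 8.12e-05) and -0.70 ± 0.07 in the cytosol (adjusted p = 9.38e-07), but after centring its nuclear slope of -0.38 became -0.06 and did not pass (adjusted p = 0.473). The highest of the list in total RNA was Mvb12b with 0.10 ± 0.06 (adjusted p = 0.151), and the lowest was Vps37b with -1.02 ± 0.05 (adjusted p = 1.87e-08). Prr15l, the relative of Prr15, could not be tested in any fraction.

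On each side of a member, the nearest gene listed in all 48 libraries was taken, so genes without that listing can lie between. The genes so taken fell or did not pass in total RNA. For Armc9, Psmd1, a subunit gene of the proteasome 15629 bp away, had a slope of -0.05 ± 0.03 in total RNA (adjusted p = 0.121). B3gnt7, a glycosyltransferase gene 24548 bp away on the other side, fell with -0.54 ± 0.12 (adjusted p = 0.00138). Pdcd7, which encodes a splicing protein and ends 1398 bp before Ubap1l on the same strand, fell in each fraction, with -0.61 ± 0.06 in total RNA (adjusted p = 2.02e-06). Mtfmt, the mitochondrial methionyl-tRNA formyltransferase gene 55405 bp away on the other side of Ubap1l, fell with -0.57 ± 0.06 (adjusted p = 2.6e-06). For Cux1, Prkrip1, 49172 bp away, fell with -0.51 ± 0.04 (adjusted p = 6.33e-07). Ift22, a gene of intraflagellar transport 340660 bp away, fell with -0.41 ± 0.07 (adjusted p = 0.000167). For Prr15, Chn2, 24025 bp away, had a slope of 0.01 ± 0.08 in total RNA (adjusted p = 0.944). Scrn1, 170972 bp away, had a slope of 0.00 ± 0.04 (adjusted p = 0.978). In the nucleus Scrn1 rose by 0.11 ± 0.05 log2 per h (adjusted p = 0.046), a call lost when any replicate was left out (adjusted p between 0.0643 and 0.258).

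Several annotated genes overlap the members, and how strand was used in counting is not given in the sources used here. Prr15 lies within 9130019P16Rik, a noncoding gene of the opposite strand listed in all 48 libraries. In total RNA 9130019P16Rik had ratios of 0.559, 0.529 and 1.13 at 30 min, 0.176, 0.280 and 0.246 at 60 min, 0.352, 0.376 and 0.319 at 120 min and 0.706, 0.493 and 0.725 at 240 min. In the cytosol its mean went from 0.881 ± 0.145 (SD, n = 3) at 30 min to 0.238 ± 0.106 at 240 min, a fall with a slope of -0.53 ± 0.10 (adjusted p = 0.000374). It thus stayed below its starting level at 240 min where Prr15 stood above it in total RNA. Gm16599, antisense to Cux1 and listed in 46 libraries, had a slope of 0.23 ± 0.16 in total RNA (adjusted p = 0.238) and 0.00 ± 0.15 in the nucleus (adjusted p = 0.98). Gm38082 and A430110C17Rik, on the strand of Cux1, were listed in 33 and 27 libraries. Gm21972, on the strand of Armc9, was listed in 0 libraries, Gm16341, antisense to it, in 1, and Gm17875, a pseudogene within Ubap1l, in 9.

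**Figure D5:**
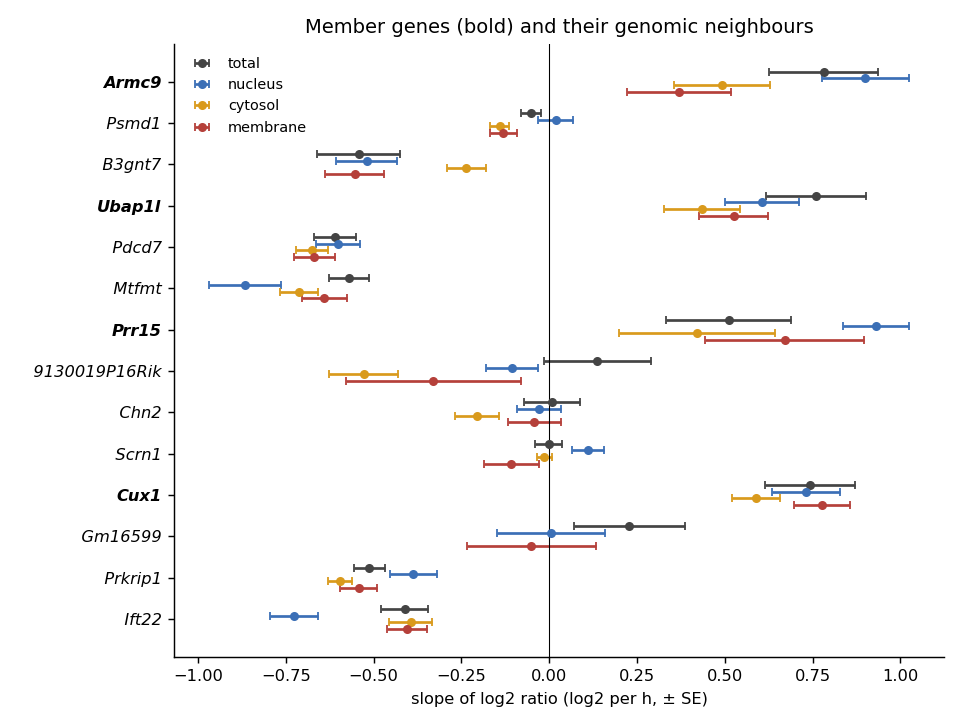
Slope of the log2 ratio (log2 per h, ± SE) of each member (bold), of overlapping genes and of the nearest genes listed in all 48 libraries, coloured by fraction. The members lie to the right of 0 in all fractions, while Pdcd7, Mtfmt, B3gnt7, Prkrip1 and Ift22 lie to the left in all of them with the deposited scaling.

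Genes with a like pattern were ranked by the root-mean-square difference in mean log2 ratio over the 16 groups of fraction and time, among 8455 candidates listed in all 48 libraries, leaving out predicted genes, pseudogenes and genes without a symbol. These groups include the total and nuclear values on which the members were selected, so likeness between members is partly set by that choice. Closest to Armc9 were Cux1, with a difference of 0.55 log2 units, Mthfd2, an enzyme of mitochondrial folate metabolism, with 0.59, and Ubap1l, with 0.61. Closest to Cux1 were Armc9 with 0.55, Elavl1, an RNA-binding protein gene, with 0.59 and Pick1 with 0.63. Ubap1l was closest to Hrk with 0.40, Nupr1, a stress-response gene, with 0.46 and Dennd1a with 0.51. Prr15 had no gene as close, the nearest being Tln2 with 0.76, Mthfd2 with 0.78 and Atxn1 with 0.81. At 240 min Hrk stood at a geometric mean ratio of 4.46 in total RNA and 5.43 in the cytosol, against 4.56 and 2.89 for Ubap1l. Over the 8 groups of cytosol and membrane fraction alone, with predicted genes kept in, Ubap1l was 24th of 10693 genes in likeness to Armc9 and Cux1 was 187th, while Prr15 was 2873rd. In likeness to Prr15, Armc9 was 161st, Cux1 174th and Ubap1l 4979th of these genes. The rankings describe closeness in level over the groups, not shape alone, and share the same libraries for all genes.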

How the data were processed

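Polyadenylated RNA was measured in 48 libraries of E14TG2a cells treated with flavopiridol. Per the labels, STAR 2.7.6 (mm10) and RSEM 1.3.3 served the authors for alignment and counting. They then, as the methods state, scaled libraries on genes with long half-lives and divided by the 0 min level. The deposited values are thus a ratio to 0 min, and genes at 0 are not listed. Whether genes are missing for other reasons was not tested. A TruSeq Stranded kit was used, and no depth or counting error can be given. Any decay of the reference genes would tilt every slope.

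Groups and replicate numbers came from the titles. The last time, 240 min in titles, is given as 180 min by the protocol text, and the titles were followed. Of 23862 identifiers, 23786 matched a symbol. Positions came from GENCODE M21 (GRCm38), and sequences from RefSeq (GRCm38.p6), where 4 of 4 members matched.

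Slopes, steps and the interaction were fitted on log2 ratios with limma 3.58.1 in R 4.3.3 (eBayes with trend, two-sided, Benjamini-Hochberg over all genes tested, threshold 0.05, no pseudocount) for genes with a value in each of a fraction's 12 libraries (24 for the interaction). The fits were tested on simulated data. Figures were drawn with matplotlib 3.10.9 in Python 3.11.15.

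The members and lists were chosen with earlier results of these data known. Named genes were the members, and in each list the highest and lowest slope in total RNA and any gene that rose. Also named were the nearest gene on each side listed in all 48 libraries and the 3 genes most like each member. To these came the 2 genes directly below the top-ranked members by slope in total RNA and nucleus, leaving out predicted genes. Hrk, Ubap1 and the overlapping genes' listings were also given, Hrk and Ubap1 being chosen after values were seen. Same-numbered replicates showed correlated deviations of only -0.06 to 0.19 between times, so no pairing was assumed between times. Cytosolic and membrane libraries of the same harvest showed correlations of 0.03 to 0.15. The main interaction fit left this pairing out, and an alternative used harvest as a block. Alternatives covered a pseudocount of 0.1, listing in at least 9 libraries, 2 library scalings, a replicate block, limma without trend, the window without 240 min, 180 min as last time, each replicate left out, and 1 nuclear library left out.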

Additional observations from a re-analysis of the deposited data

Results flagged for a closer look

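9130019P16Rik, the noncoding gene that overlaps Prr15 on the opposite strand, had positive slopes in all 3 replicate series of total RNA and negative ones in all 3 of the nucleus and of the cytosol. Its mean slope was 0.14 log2 per h in total, -0.11 in nuclear and -0.53 in cytosolic RNA, which gave differences of 0.24 and 0.67. Neither difference was tested. In limma the positive total value (SE 0.15, adjusted p = 0.463) and the negative nuclear value (SE 0.07, adjusted p = 0.224) did not pass. Total RNA of this gene dipped, with mean ratios of 0.738 at 30 min, 0.234 at 60 min and 0.641 at 240 min. From 30 to 240 min replicate 1 went up, from 0.559 to 0.706. Replicate 2 went down from 0.529 to 0.493, and replicate 3 from 1.13 to 0.725. Groups of 3 libraries are too small for the test for single outlying libraries, which was not run.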

How the results depend on the processing

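The 4 members kept positive slopes in each fraction under the alternatives run, except without the 240 min libraries. The replicate block, limma without trend and the wider listing could not change these slopes. The library scalings shifted all slopes of a fraction upward by the same amount, so they could not turn a positive slope negative. No alternative allowed for decay of the reference genes. Without those libraries the slope was -0.54 log2 per h for Prr15, 0.56 for Armc9 and 0.0011 for Ubap1l in total RNA, 0.34 for Ubap1l and 1.10 for Cux1 in the nucleus, -0.21 for Armc9, -0.17 for Ubap1l and 0.50 for Cux1 in the cytosol, and -0.33 for Armc9, 0.079 for Ubap1l and -0.19 for Prr15 in the membrane fraction. The membrane minus cytosol slope of Prr15 was then -0.24, Cux2 had -0.12 in cytosol and -0.032 in the membrane fraction, and 107, 220, 144 and 271 genes rose in total RNA, nucleus, cytosol and membrane fraction, in place of 432, 443, 353 and 507. With 180 min as the last time, slopes were 1.05, 0.96 and 1.01 for Armc9, Ubap1l and Cux1 in total RNA and 1.24, 0.80, 1.28 and 1.04 for Armc9, Ubap1l, Prr15 and Cux1 in the nucleus, and membrane Armc9, with 0.43, no longer passed (adjusted p = 0.107). With listing in at least 9 libraries, membrane Armc9, with 0.37, missed the threshold (adjusted p = 0.0503).

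Centring libraries on the median gene gave slopes of 1.01, 0.99, 0.74 and 0.97 for Armc9, Ubap1l, Prr15 and Cux1 in total RNA, 1.22, 0.92, 1.25 and 1.05 in the nucleus and 0.70 for cytosolic Prr15. It gave 3672, 3954, 3520 and 3513 rising and 3961, 3897, 3887 and 3837 falling genes in total RNA, nucleus, cytosol and membrane fraction, the main falling counts being 7262, 8256, 8038 and 7718. Scaling to the same total gave 0.92, 0.67 and 0.90 for Ubap1l, Prr15 and Cux1 in total RNA, 0.81, 1.13 and 0.93 in the nucleus and 0.64 for cytosolic Prr15, with 2559, 2283, 2581 and 2275 rising genes, and 5362, 4662 and 4896 falling in nucleus, cytosol and membrane fraction. Psmd1 turned to 0.14 in cytosol and 0.13 in membrane fraction after centring, and to 0.078 and 0.051 with the same total. Chn2 turned to 0.075 and 0.014 in the cytosol, and B3gnt7 to 0.045 there after centring.

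Leaving out each replicate in turn gave slopes between 0.22 and 0.56 for cytosolic Prr15, 0.36 and 0.38 for membrane Armc9 and 0.53 and 0.90 for membrane Prr15. The 240 minus 120 min step ranged from 1.58 to 2.29 for cytosolic Armc9, 1.38 to 1.82 for membrane Armc9 and 2.04 to 3.12 for membrane Prr15. The 120 minus 60 min step, which had not passed, ranged from -0.0048 to 0.51, -0.68 to 0.73 and -0.29 to 0.19 for cytosolic Armc9, Prr15 and Ubap1l, and from -0.30 to 0.65 and -1.96 to 0.022 for membrane Armc9 and Prr15. Rising genes numbered 256 to 353 in total RNA, 273 to 343 in the nucleus and 304 to 370 in the membrane fraction, and 209 to 293 genes, in place of 743, differed between membrane fraction and cytosol. The cause was not tested.

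A replicate block changed no call of a member, for instance 0.37 for membrane Armc9 and, with harvest as the block, 0.19 for the membrane minus cytosol slope of Cux1. Harvest pairs the cytosol and membrane libraries of the same culture, whereas replicates of different times share only a number. Nuclear slopes without the 30 min library of replicate 1 stayed within the spread of replicates, and 429 genes then rose there. The pseudocount and limma without trend changed no call of a member. The unknown depth limits what the wide spread of Prr15 can be set against.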
